A study of Mus musculus with 300 samples.

Results

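Fbp1 and Fbp2 encode the liver-type and muscle-type fructose-1,6-bisphosphatases, and they were followed across 4 tissues of mice given agonists of the peroxisome proliferator-activated receptors (PPARs). They are 2 of the 18193 genes measured, each read by 1 probe set, and they were chosen by measured values: Fbp2 was picked because it was higher with GW501516 in skeletal muscle and with WY14643 in liver. Values of both genes in those 2 contrasts are therefore given as a description, with no test. The treated groups received, by the oral route, 10 mg/kg of WY14643, an agonist of PPAR-alpha, GW501516, an agonist of PPAR-delta, or rosiglitazone, an agonist of PPAR-gamma, and the remaining mice received vehicle. In each of liver, heart, kidney and skeletal muscle, 5 mice per compound and 10 vehicle mice were sampled on each of days 4, 8 and 15, which gave 75 arrays per tissue and 300 in all. The 4 tissues came from the same 75 mice, and strain, sex, age and the composition of the vehicle are not given in the sources used here.

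Fructose-1,6-bisphosphatase removes a phosphate from fructose 1,6-bisphosphate to give fructose 6-phosphate, which opposes phosphofructokinase and commits carbon to glucose or glycogen. Fbp1 serves gluconeogenesis in liver and in the proximal tubule of the kidney, while Fbp2 is the main form in muscle, where it is tied to the making of glycogen from lactate, and is more sensitive to inhibition by AMP. PPARs are nuclear receptors that bind DNA with retinoid X receptor at repeated AGGTCA-like half-sites and are best known for inducing genes of fatty acid oxidation.

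The genes lie next to each other on the minus strand of chromosome 13 (GRCm38.p6 build, RefSeq annotation). Fbp2 (gene ID 14120, probe set 1449088_at) spans chr13:62836884-62858400 and Fbp1 (gene ID 14121, probe set 1448470_at) spans chr13:62864753-62888298, with 6352 bases and 0 other annotated genes between them. The 250 bases before the start site of each gene in RefSeq's promoters are shown as a description of the neighbours. The Fbp2 stretch is chr13:62858401-62858650 and the Fbp1 stretch is chr13:62888283-62888532, both read on the minus strand from 5′ to 3′, with the E-box CACGTG in capitals. The start used for the Fbp1 stretch lies inside the annotated gene span, so its last 16 bases are also bases of the gene, against 0 for Fbp2.
Fbp2: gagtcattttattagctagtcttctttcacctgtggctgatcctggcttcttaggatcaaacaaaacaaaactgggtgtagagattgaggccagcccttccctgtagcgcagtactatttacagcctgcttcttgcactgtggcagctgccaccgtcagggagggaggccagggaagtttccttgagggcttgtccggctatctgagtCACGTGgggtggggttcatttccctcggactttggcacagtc
Fbp1: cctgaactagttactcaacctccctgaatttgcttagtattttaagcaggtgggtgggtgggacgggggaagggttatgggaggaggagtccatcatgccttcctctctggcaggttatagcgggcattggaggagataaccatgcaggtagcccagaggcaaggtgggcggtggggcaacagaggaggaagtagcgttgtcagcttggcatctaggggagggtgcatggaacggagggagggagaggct

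CACGTG, a palindrome that is read alike on both strands, occurs in the Fbp2 stretch with its first base at position -42 and not in the Fbp1 stretch, and 6.02% of the 32851 RefSeq promoter stretches of this length hold it. The PPAR-type direct repeat, 2 copies of AGGTCA with 1 base of any kind between them, searched on both strands, is in neither stretch and in 0.0335% of all stretches. Its half-site AGGTCA, which any such repeat contains, is also in neither, against 14.0% of all stretches. The cyclic AMP response element TGACGTCA, another palindrome, is in neither and in 1.55% of all. These counts say only which letters stand in these windows. The GC content of the Fbp2 stretch is 52.4%, equal to the median of all stretches, and that of Fbp1 is 56.4%.

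Values are log2 intensities normalized by the robust multi-array average (RMA). Median intensity ran over 6.12 to 6.26 in liver, 7.27 to 7.44 in heart, 5.05 to 5.38 in kidney and 4.98 to 5.13 in skeletal muscle arrays, so levels were not set against each other across tissues and each gene was placed by its percentile among the probe sets of its own array. Markers of the labelled tissues were high in them: 10 hepatocyte markers averaged 13.9 to 14.2 in liver arrays and 6 proximal tubule markers 11.47 to 12.52 in kidney arrays. Outside liver, the mean of the hepatocyte markers varied from array to array. Its lowest and highest values were 5.46 and 11.6 for heart, and 3.33 and 11.1 for skeletal muscle. In both tissues the lowest value fell below every array median. For kidney the mean lay between 5.64 and 8.04. It averaged markers that stood far apart there, such as Serpina1c at 2.69 and Apoh at 10.0 in vehicle arrays. With 5 treated arrays against 10 vehicle arrays in each day's comparison, array number and the spread between arrays both limit the precision of every value.

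In vehicle mice Fbp1 stood highest in liver and kidney and Fbp2 in skeletal muscle. Fbp1 sat at the median percentile 99.8 of liver arrays and 99.9 of kidney arrays, with log2 levels of 13.91 ± 0.05 in liver and 13.07 ± 0.04 in kidney (SD, n = 30 each). In heart its median percentile was 64.3 and its level 8.45 ± 1.01, and in skeletal muscle 56.96 and 5.92 ± 1.26 (SD, n = 30 each). The range over vehicle arrays was 13.73 to 14.00 in liver and 12.99 to 13.16 in kidney, but 6.19 to 10.29 in heart and 3.77 to 9.62 in skeletal muscle. Fbp1 thus varied little where it was near the top of the array and by several log2 units in the other tissues.

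Fbp2 was highest by percentile in skeletal muscle, at 92.0, followed by kidney at 81.3 and, after heart, liver at 37.2. The kidney range of percentiles, 74.96 to 84.7, and the heart range, 71.4 to 84.4, overlapped almost fully, while the skeletal muscle range of 87.2 to 94.7 and the liver range of 27.8 to 41.9 stood apart. Its log2 level in vehicle arrays was 9.86 ± 0.38 in skeletal muscle, 8.46 ± 0.25 in kidney, 10.08 ± 0.35 in heart and 5.15 ± 0.23 in liver (SD, n = 30 each). Neither gene passed the test between vehicle days in any tissue, with the lowest adjusted p at 0.45 over 16 contrasts (limma, Benjamini-Hochberg), in which 0.0055% to 9.73% of all genes passed.

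In skeletal muscle, Fbp2 was higher with GW501516 on every day. On day 4 the 5 GW501516 arrays read 11.53, 11.27, 11.42, 11.51 and 11.44, against a lowest, median and highest vehicle value of 9.08, 9.77 and 10.26. On day 8 they read 11.48, 11.21, 10.97, 11.22 and 11.59, against 9.36, 9.85 and 10.45 in vehicle. On day 15 they read 10.53, 11.502, 11.46, 11.38 and 11.69, against 9.29, 9.97 and 10.44 in vehicle. The groups did not overlap on any day, and all 15 treated arrays lay above all 30 vehicle arrays, although the lowest GW501516 array of day 15 exceeded the highest vehicle array of any day, at 10.45, only narrowly.

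The mean Fbp2 level was 11.35 ± 0.29 with GW501516 (SD, n = 15) and 9.86 ± 0.38 with vehicle (SD, n = 30). The difference was 1.48 ± 0.11 log2 units (SE), or 2.80-fold with a 95% interval of 2.41 to 3.25. By day it was 1.69, 1.43 and 1.34 on days 4, 8 and 15 (SE 0.19 each). In this contrast 0.857% of all genes passed an adjusted p of 0.05, and since the contrast chose Fbp2, nothing is read from that share. Adipocyte markers, 5 of 7 measured, averaged 6.72 to 10.79 with GW501516 and 6.35 to 11.02 with vehicle (medians 7.63 and 9.05), and had a correlation of -0.33 with Fbp2 over 75 arrays minus group means; with them as a covariate the difference was 1.45. Slow muscle fibre markers averaged 5.45 to 11.27 with GW501516 and 4.78 to 11.25 with vehicle, and with them as a covariate it was 1.48. At the highest GW501516 value Fbp2 reached percentile 98.2 of its array. Samples are bulk tissue, so a change in the share of cells that express a gene and a change in RNA per cell cannot be told apart.

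WY14643 and rosiglitazone did not move Fbp2 past the test in skeletal muscle. With WY14643 it averaged 9.92 ± 0.38 and with rosiglitazone 10.01 ± 0.36 (SD, n = 15 each), against 9.86 ± 0.38 in vehicle (SD, n = 30). The WY14643 difference was 0.06 (95% interval -0.16 to 0.28, adjusted p = 0.871 in limma, where 0.104% of genes passed), and 9 of 15 arrays lay above the same-day vehicle mean. The rosiglitazone difference was 0.14 (-0.07 to 0.36, adjusted p = 0.687, where 1.65% of genes passed). On day 4 alone rosiglitazone differed by 0.54 (0.16 to 0.92), with an unadjusted p of 0.00581 in limma, and did not pass after adjustment over all genes.

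**Figure D1:**
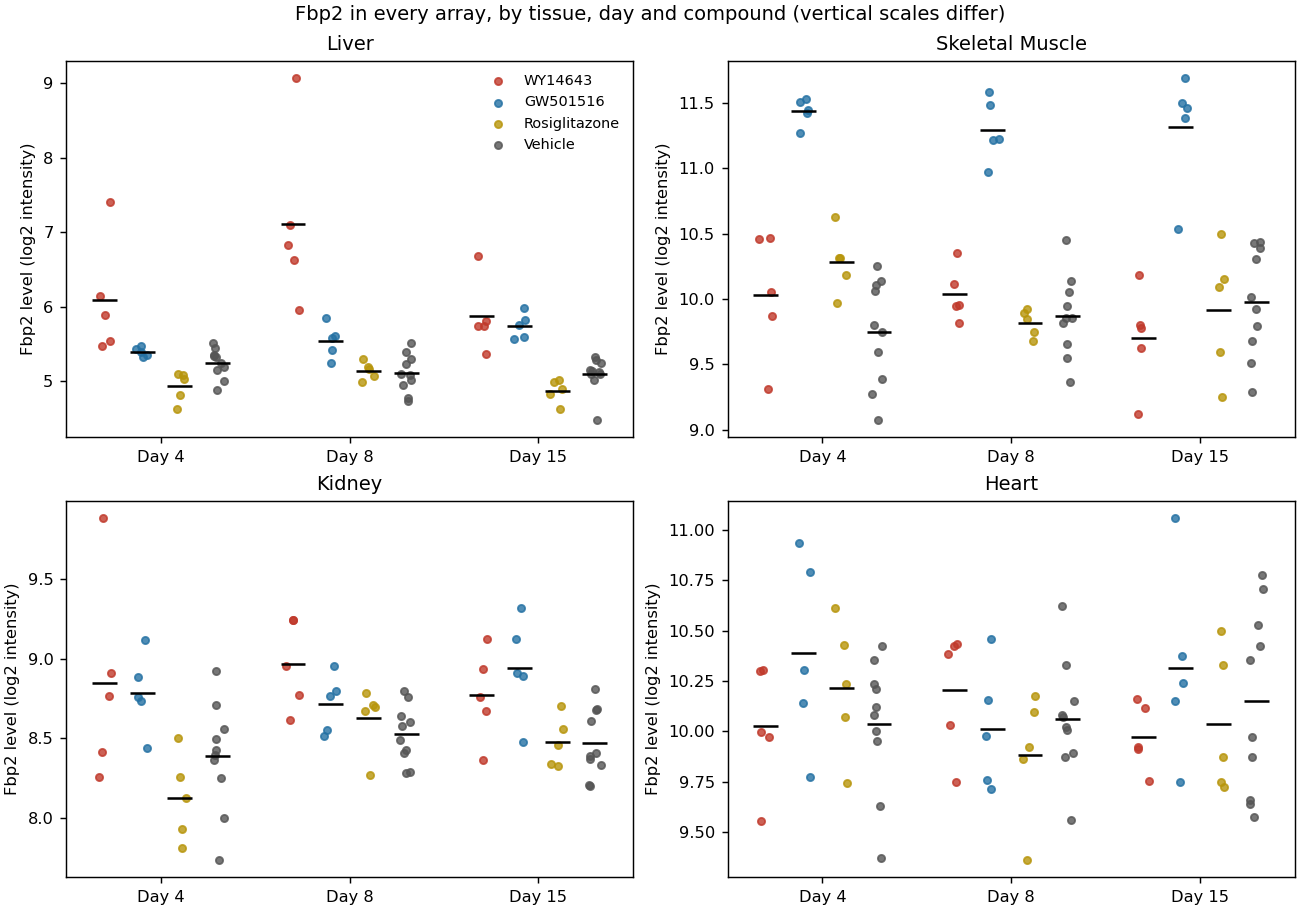
Log2 intensity of Fbp2 in each of 300 arrays, with tissue panels and days along the horizontal axis. Points are arrays, colours are compounds with vehicle at the right of each day, and black lines are group means; vertical scales differ between panels. All 15 GW501516 arrays in skeletal muscle lie above the 30 vehicle arrays, and the WY14643 arrays in liver spread up to 9.06.

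In liver, where Fbp2 was low in vehicle mice, it was higher with WY14643 and the treated animals spread widely. On day 4 the WY14643 arrays read 5.89, 7.40, 6.14, 5.54 and 5.47, against a lowest, median and highest vehicle value of 4.89, 5.29 and 5.51. On day 8 they read 9.06, 6.62, 7.10, 6.83 and 5.96, against 4.74, 5.09 and 5.51 in vehicle. On day 15 they read 5.75, 5.37, 5.75, 5.81 and 6.69, against 4.49, 5.13 and 5.33 in vehicle. Only the lowest WY14643 array of day 4 fell inside the range of its day's vehicle arrays, and 13 of 15 exceeded all 30 vehicle arrays.

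The mean with WY14643 was 6.36 ± 0.97 (SD, n = 15), against 5.15 ± 0.23 in vehicle (SD, n = 30), so the SD was several times wider in treated livers. The difference of 1.21 ± 0.13 log2 units (SE) was 2.31-fold, with a 95% interval of 1.93 to 2.76. The fit pools 1 spread over the 12 liver groups. The SD was 0.78, 1.17 and 0.49 with WY14643 on days 4, 8 and 15, and 0.06 to 0.25 in the other groups. The SE and interval are therefore too narrow for the WY14643 livers. By day it was 0.84, 2.002 and 0.77 on days 4, 8 and 15 (SE 0.22 each), and without day 8 the mean was 0.81. In this contrast 11.2% of genes passed, from which nothing is read for the member that it chose. The highest WY14643 array stood at percentile 77.6, which compares with a highest vehicle percentile of 41.9. The mean of 9 skeletal muscle fibre markers stayed at 4.57 to 4.85 in WY14643 livers and 4.55 to 4.94 in vehicle livers, and its correlation with Fbp2 over the 75 liver arrays, each taken minus its group mean, was 0.09.

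GW501516 raised Fbp2 in liver less and more evenly. On day 4 its arrays read 5.39, 5.35, 5.48, 5.32 and 5.43, all inside the vehicle range given above. On day 8 they read 5.25, 5.85, 5.59, 5.61 and 5.42, of which 3 exceeded the highest vehicle array of 5.51. On day 15 they read 5.57, 5.60, 5.99, 5.82 and 5.76, and all 5 exceeded the highest vehicle array of 5.33. All 15 arrays lay above the same-day vehicle mean and 8 above all 30 vehicle arrays.

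Fbp2 averaged 5.56 ± 0.21 with GW501516 (SD, n = 15) and 5.15 ± 0.23 with vehicle (SD, n = 30) in liver. The difference was 0.41 ± 0.13 (SE), or 1.33-fold, and passed the test (adjusted p = 0.0211 in limma, where 13.9% of genes passed). Single days gave 0.15, 0.43 and 0.65, none of which passed alone, and the change between days 4 and 15 did not pass (0.50, 95% interval -0.13 to 1.13). All liver tests of Fbp2 use a spread pooled with the WY14643 livers, which varied most, and a spread by group was not fitted. With 2 components of the circadian clock genes as covariates the value was 0.49 and the call was lost (adjusted p = 0.221 in limma), and the part that clock time plays was not tested further. Rosiglitazone gave Fbp2 an average of 4.98 ± 0.19 (SD, n = 15), which was -0.17 from vehicle (-0.42 to 0.09, adjusted p = 0.435 in limma, where 16.2% of genes passed), with 12 of 15 arrays below the same-day vehicle mean.

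In kidney, Fbp2 rose with both WY14643 and GW501516 and by similar amounts. WY14643 arrays read 8.91, 9.88, 8.41, 8.77 and 8.25 on day 4, against a lowest, median and highest vehicle value of 7.73, 8.41 and 8.92. They read 9.25, 8.96, 9.25, 8.77 and 8.62 on day 8, against 8.28, 8.53 and 8.80 in vehicle, and 8.36, 8.76, 8.67, 8.93 and 9.13 on day 15, against 8.20, 8.40 and 8.81 in vehicle. The groups overlapped on every day, and 6 of 15 WY14643 arrays exceeded all 30 vehicle arrays.

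GW501516 kidneys read 9.12, 8.89, 8.74, 8.76 and 8.44 for Fbp2 on day 4, and 8.96, 8.77, 8.55, 8.80 and 8.52 on day 8. On day 15 they read 8.89, 9.32, 8.91, 8.48 and 9.12. These also overlapped with the vehicle ranges just given on each day, with 14 of 15 arrays above the same-day vehicle mean and 4 above all 30 vehicle arrays.

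The mean Fbp2 level in kidney was 8.86 ± 0.41 with WY14643, 8.82 ± 0.25 with GW501516 and 8.41 ± 0.30 with rosiglitazone (SD, n = 15 each), against 8.46 ± 0.25 in vehicle (SD, n = 30). The WY14643 difference was 0.40 ± 0.09 (SE), or 1.32-fold (adjusted p = 0.00448 in limma, where 1.74% of genes passed), with 13 of 15 arrays above the same-day vehicle mean. The GW501516 difference was 0.36 ± 0.09 (SE), or 1.28-fold (adjusted p = 0.00775 in limma, where 6.79% of genes passed). Rosiglitazone gave -0.05 (95% interval -0.23 to 0.13, adjusted p = 0.994, where 1.52% of genes passed). With clock components as covariates neither rise passed, at 0.32 for WY14643 (adjusted p = 0.1 in limma) and 0.16 for GW501516 (adjusted p = 0.836), and without day 8 the WY14643 value was 0.38 (adjusted p = 0.105); the part of the clock was not tested further. Proximal tubule markers, 6 of 6 measured, averaged 11.89 to 12.47 with WY14643, 11.47 to 12.50 with GW501516 and 11.94 to 12.52 with vehicle, and their correlation with Fbp2 over 75 kidney arrays minus group means was 0.04.

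In heart, where Fbp2 was well expressed, no compound moved it past the test. The level was 10.07 ± 0.27 with WY14643, 10.24 ± 0.43 with GW501516 and 10.05 ± 0.34 with rosiglitazone (SD, n = 15 each), against 10.08 ± 0.35 in vehicle (SD, n = 30). The differences were -0.02 for WY14643 (95% interval -0.24 to 0.20, adjusted p = 0.972, where 1.44% of genes passed), 0.16 for GW501516 (-0.06 to 0.37, adjusted p = 0.573, where 4.17% passed) and -0.04 for rosiglitazone (-0.26 to 0.18, adjusted p = 0.884, where 7.51% passed), all in limma.

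Over the 4 tissues, 3 of the 10 tested differences of Fbp2 from vehicle passed, those of GW501516 in liver (13.9% of all genes passed there) and of WY14643 (1.74%) and GW501516 (6.79%) in kidney. Of the 10 of Fbp1, 1 passed, that of GW501516 in liver (13.9%).

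**Figure D2:**
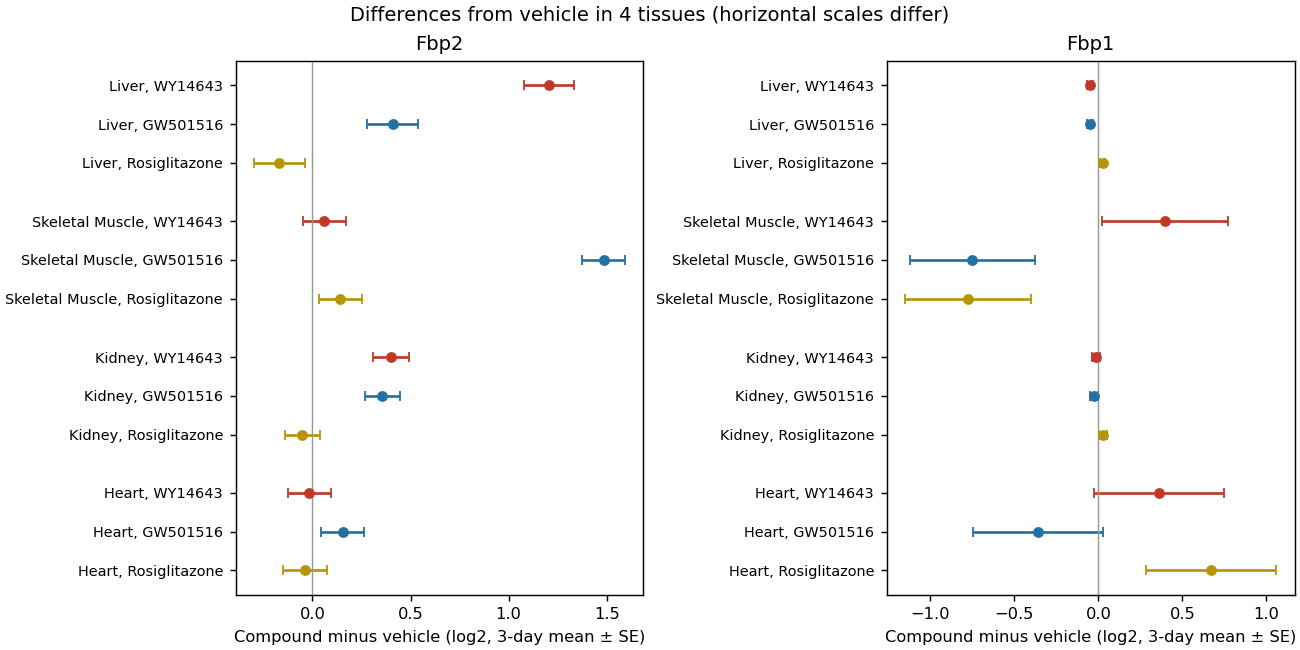
Difference of each compound from same-day vehicle, averaged over days 4, 8 and 15, in log2 units, for Fbp2 on the left and Fbp1 on the right. Points are fitted differences, each from 15 treated and 30 vehicle arrays. Bars are standard errors from a spread pooled over the 12 groups of a tissue, and the horizontal scales differ. Fbp2 lies at 1.48 for GW501516 in skeletal muscle and 1.21 for WY14643 in liver, while Fbp1 stays within 0.06 of 0 in liver and kidney and has wide bars in heart and skeletal muscle.

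Fbp1, the gluconeogenic form, differed little from vehicle in liver, where it sat at percentile 99.8 of the array, and how the upper end of the array's range bears on these differences, and on those in kidney at percentile 99.9, was not tested. It averaged 13.86 ± 0.06 with WY14643, 13.86 ± 0.05 with GW501516 and 13.93 ± 0.05 with rosiglitazone (SD, n = 15 each), against 13.91 ± 0.05 in vehicle (SD, n = 30). The GW501516 difference of -0.05 ± 0.02 (SE), a fold of 0.965, passed the test (adjusted p = 0.0298 in limma), with 12 of 15 arrays below the same-day vehicle mean. That call was lost with each array centred on its median (-0.04, adjusted p = 0.209), without a variance trend (adjusted p = 0.0761) and with clock covariates (-0.07, adjusted p = 0.242), all in limma. WY14643 gave -0.05 as a description, with 13 of 15 arrays below the same-day vehicle mean, and rosiglitazone gave 0.02 (95% interval -0.01 to 0.06, adjusted p = 0.363 in limma).

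Kidney Fbp1 did not pass the test with any compound. It averaged 13.05 ± 0.03 with WY14643, 13.04 ± 0.15 with GW501516 and 13.09 ± 0.05 with rosiglitazone (SD, n = 15 each), against 13.07 ± 0.04 in vehicle (SD, n = 30). The 95% intervals of the differences were -0.06 to 0.03 for WY14643, -0.08 to 0.02 for GW501516 and -0.02 to 0.08 for rosiglitazone. Over 75 kidney arrays minus group means Fbp1 had a correlation of 0.53 with the proximal tubule markers. Replicate 1 of GW501516 on day 8 was the lowest kidney array for both, at 12.53 for Fbp1 and 11.47 for the markers. The correlation was not computed without this array.

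**Figure D3:**
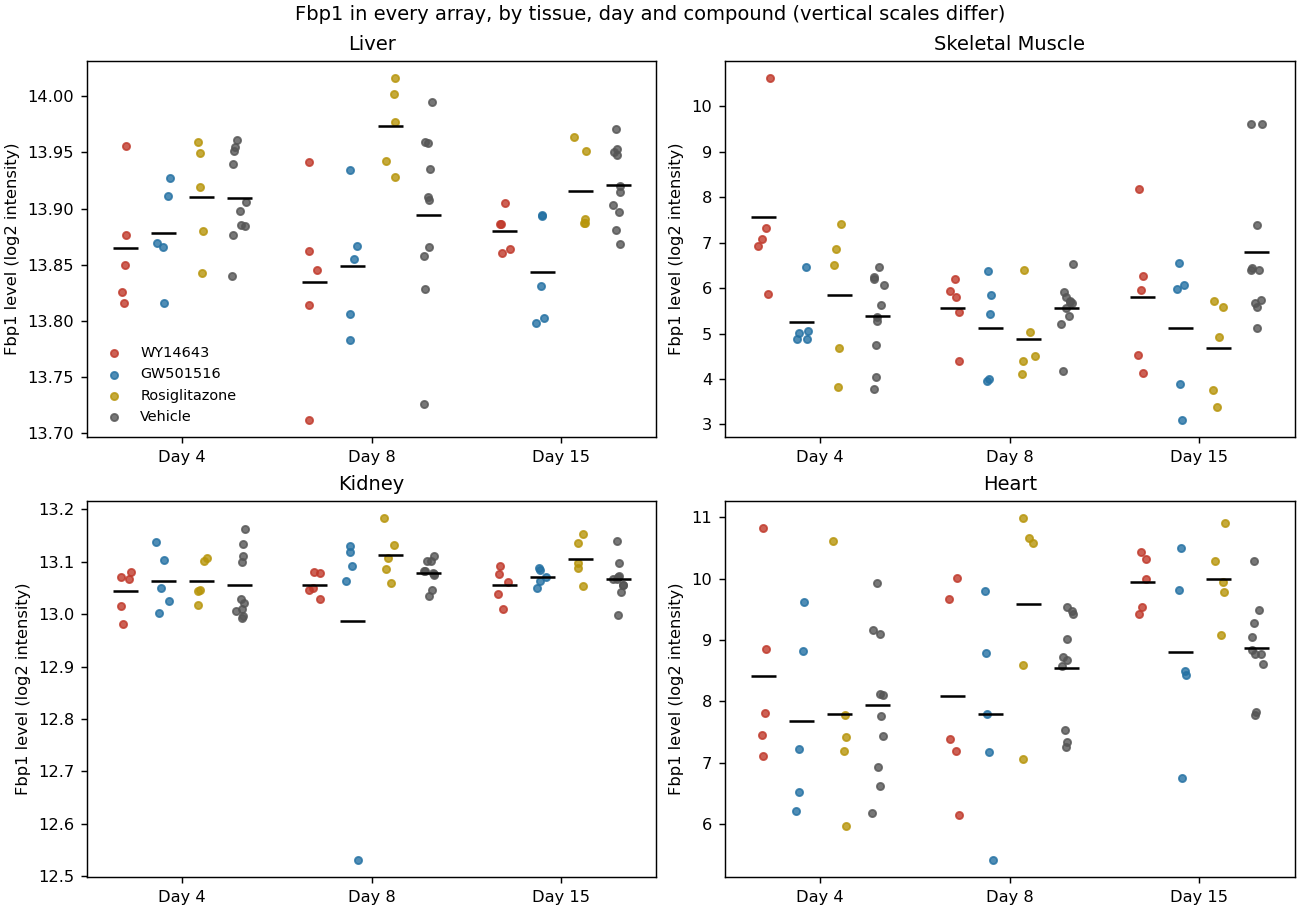
Log2 intensity of Fbp1 in each of 300 arrays, laid out by tissue, day and compound with vehicle at the right of each day. Points are arrays and black lines are group means; vertical scales differ between panels. Vehicle arrays span 13.73 to 14.00 in liver and 12.99 to 13.16 in kidney, and 6.19 to 10.29 in heart and 3.77 to 9.62 in skeletal muscle.

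In heart and skeletal muscle, Fbp1 levels went with markers of hepatocytes and of the proximal tubule. Over 75 arrays minus group means the correlation of Fbp1 with the mean of 10 hepatocyte markers was 0.67 in heart and 0.68 in skeletal muscle, while that of Fbp2 was -0.06 in heart and -0.02 in skeletal muscle. With proximal tubule markers the correlation of Fbp1 was 0.40 in heart, where those markers ranged up to 9.24, and 0.70 in skeletal muscle, where they averaged 3.30 to 5.41 with WY14643, 3.35 to 4.67 with GW501516, 3.38 to 5.91 with rosiglitazone and 3.26 to 7.48 with vehicle. By compound or vehicle, the median of the proximal tubule marker mean was 5.53 to 5.74 in heart and 3.61 to 3.67 in skeletal muscle. Both lie below the median intensity of those arrays. With adipocyte markers the correlation of Fbp1 was 0.38 in skeletal muscle. Albumin (Alb) and transthyretin (Ttr), secreted hepatocyte proteins, were the highest of these markers in skeletal muscle and heart. These markers share array and RNA with Fbp1, and their part in its level was not tested.

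**Figure D4:**
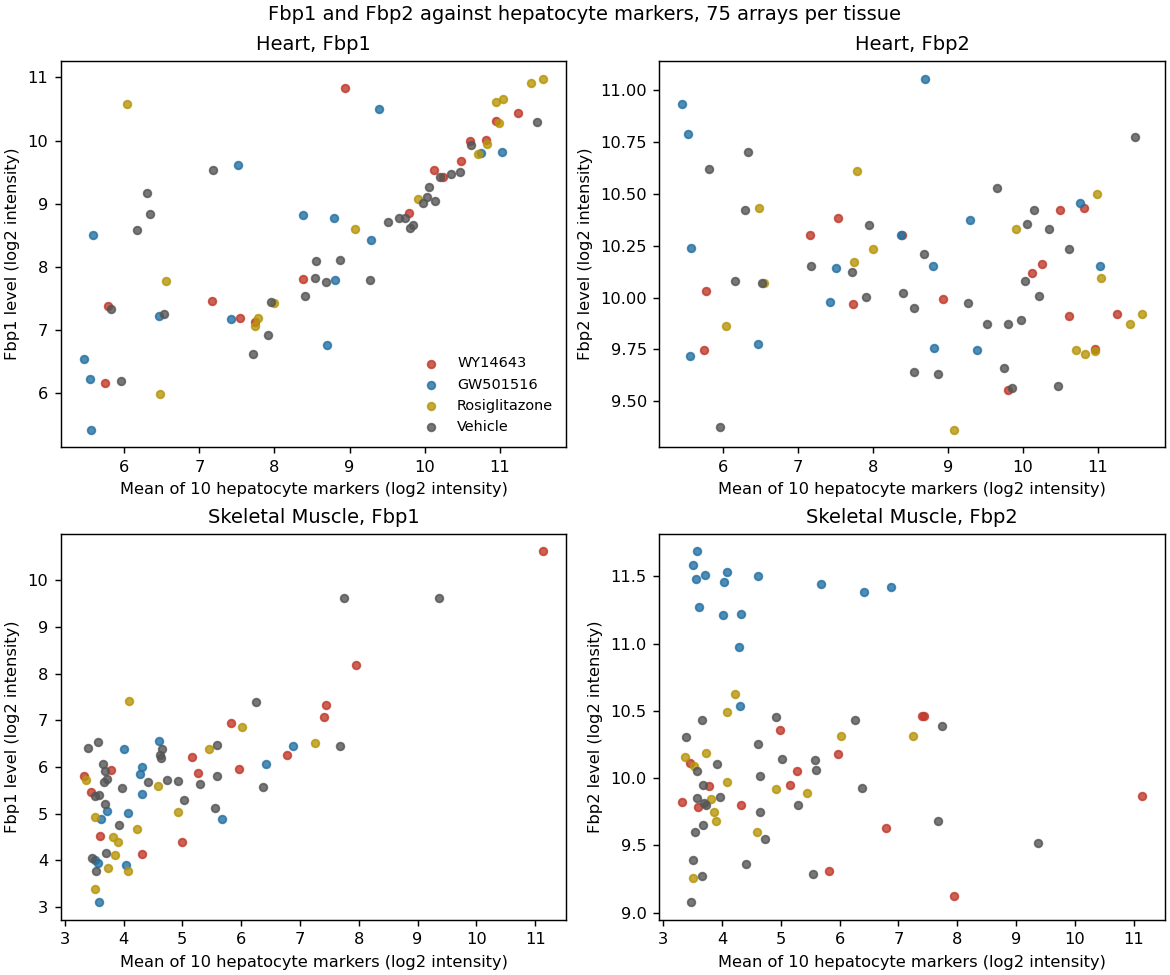
Levels of Fbp1 on the left and Fbp2 on the right against the mean of 10 hepatocyte markers, all in log2 intensity, in 75 heart arrays above and 75 skeletal muscle arrays below. Points are arrays and colours are compounds. Fbp1 climbs with the markers, with correlations within groups of 0.67 in heart and 0.68 in skeletal muscle, and Fbp2 does not, at -0.06 and -0.02.

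One single-day test of Fbp1 passed, that of WY14643 in skeletal muscle on day 4. The arrays read 7.08, 6.93, 10.62, 7.33 and 5.87, against a lowest, median and highest vehicle value of 3.77, 5.50 and 6.46. The third array stood far above the others and the fifth lay inside the vehicle range. The hepatocyte marker mean in the same arrays was 7.40, 5.82, 11.1, 7.44 and 5.27, against 3.47 to 5.59 in vehicle. The difference of 2.18 ± 0.65 (SE) had an adjusted p of 0.0446 in limma, where 3.34% of genes passed, but the call was lost in 7 of 13 alternatives. The value was 0.26 (adjusted p = 0.897 in limma) with the hepatocyte markers as a covariate and 1.63 (adjusted p = 0.25) with the adipocyte markers, whose mean was 10.15 in the WY14643 arrays and 8.36 in the vehicle arrays of that day. It was 1.73 (adjusted p = 0.167) with array weights and 2.84 (adjusted p = 0.0634) with clock covariates. At the value of 2.18 the adjusted p was 0.051 with the mean of all probe sets of a gene, 0.0524 with every probe set as a feature and 0.0906 without day 8, all in limma. Leaving out single arrays gave 1.42 to 2.61, and the call was lost in 6 of 15 such fits.

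Averaged over days, Fbp1 in skeletal muscle was 6.31 ± 1.63 with WY14643, 5.17 ± 1.07 with GW501516 and 5.14 ± 1.23 with rosiglitazone (SD, n = 15 each), against 5.92 ± 1.26 in vehicle (SD, n = 30). The differences were 0.40 for WY14643 (95% interval -0.35 to 1.14, adjusted p = 0.704 in limma) and -0.78 for rosiglitazone (-1.52 to -0.03, adjusted p = 0.410), and that of GW501516 was -0.75 as a description. In heart they were 0.36 (-0.41 to 1.13) for WY14643, -0.36 (-1.13 to 0.41) for GW501516 and 0.67 (-0.10 to 1.44) for rosiglitazone, with adjusted p of 0.765, 0.759 and 0.324 in limma. The spread between arrays exceeded each of these differences. With the hepatocyte covariate the sign turned for GW501516 in heart, to 0.06, and for WY14643 in skeletal muscle, to -0.21.

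Of the 60 single-day tests of both genes the day 4 value above was the 1 that passed, in comparisons where 0% to 12.8% of all genes passed. None of 20 tests of day 15 minus day 4 passed, with the lowest adjusted p at 0.255 (limma), in comparisons where 0% to 0.753% of all genes passed.

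The compounds were also set against each other at the same dose, averaged over the same days. In kidney, Fbp2 was higher with WY14643 than with rosiglitazone by 0.45 (95% interval 0.25 to 0.66, adjusted p = 0.00593 in limma, where 1.95% of genes passed). It was higher with GW501516 than with rosiglitazone by 0.41 (0.20 to 0.61, adjusted p = 0.0261, where 1.12% passed), a call lost in 4 of 30 fits without a single array. WY14643 and GW501516 differed by 0.04 (-0.16 to 0.25, adjusted p = 0.887, where 1.34% passed), an interval that leaves room for a difference in either direction.

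In liver, Fbp2 was higher with GW501516 than with rosiglitazone by 0.58 (95% interval 0.28 to 0.87, adjusted p = 0.0140 in limma, where 3.59% of genes passed). As a description, it was 0.80 higher with WY14643 than with GW501516 (4.55% of genes passed there) and 1.37 higher than with rosiglitazone (17.6% passed). Fbp1 in liver was lower than with rosiglitazone by small amounts, at -0.07 for WY14643, as a description, and -0.08 for GW501516 (adjusted p = 0.0136 in limma). This Fbp1 call for GW501516 was lost with each array centred on its median (-0.07, adjusted p = 0.101 in limma), without day 8 (adjusted p = 0.212) and with clock covariates (adjusted p = 0.121). Without day 8 the WY14643 value was -0.04.

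In skeletal muscle, as a description, Fbp2 with GW501516 was 1.34 higher than with rosiglitazone (0.066% of genes passed there), and with WY14643 it was -1.42 from GW501516 (0.572% passed). WY14643 and rosiglitazone differed by -0.08 in Fbp2 (95% interval -0.33 to 0.17, adjusted p = 0.901 in limma, where 0.0385% passed). No compound pair passed in heart for either gene, where 3.03% of genes passed for WY14643 minus GW501516, 6.12% for WY14643 minus rosiglitazone and 0.044% for GW501516 minus rosiglitazone. In all, 3 of 8 tested pairs of Fbp2 passed, with the shares of all genes given above. Among pairs of Fbp1 outside the contrasts of the choice, that of GW501516 and rosiglitazone in liver passed.

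Responses of the tissues were compared within animals. None of 24 tested differences between tissues passed, with the lowest adjusted p at 0.1 (limma), for the response of Fbp2 to WY14643 in heart minus that in kidney (-0.42 ± 0.13, SE), and 0.0055% to 12.5% of all genes passed in such comparisons. The rise of Fbp2 with GW501516 was thus not shown to differ between liver and kidney (0.05 ± 0.13, SE, adjusted p = 0.869). As a description, the response of Fbp2 to GW501516 in heart minus that in skeletal muscle was -1.33, and the response to WY14643 in liver minus that in kidney was 0.80. Over the 75 animals, each taken minus its group mean, Fbp2 in liver had a correlation of 0.33 with Fbp2 in kidney and 0.06 with Fbp2 in skeletal muscle. The spread in liver was widest in the WY14643 groups. The WY14643 mouse of day 4 with the highest liver value of its group, 7.40, also had the highest kidney value of all, 9.88. The correlations were not computed without it.

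The pattern of Fbp2 was set against that of every other gene over the 36 differences from vehicle (4 tissues, 3 compounds, 3 days), which share vehicle arrays within a tissue and day. Of these, 6 belong to the contrasts that chose Fbp2, so the ranking and the values of the genes it named are a description, with no test. The closest were Acadl, the long-chain acyl-CoA dehydrogenase, at r = 0.73, Coq3, a methyltransferase of ubiquinone synthesis, at 0.72, Serinc4 at 0.67, Mlycd, malonyl-CoA decarboxylase, at 0.65 and Nol3 at 0.63. Acadl differed from vehicle with WY14643 by 0.56 in liver and 0.39 in kidney, and with GW501516 by 0.52 in liver, 0.33 in kidney and 0.48 in skeletal muscle. In heart it differed by -0.0042 with WY14643 and 0.02 with GW501516. With rosiglitazone in liver it differed by 0.15, where Fbp2 gave -0.17. Mlycd differed by 0.71 with GW501516 in skeletal muscle and 0.40 in kidney.

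Fbp1 was most like Glyat, glycine N-acyltransferase, at r = 0.97 over the same 36 differences, then Hnf4a, a transcription factor of hepatocytes and proximal tubule cells, at 0.95, Hgd, homogentisate dioxygenase, at 0.95, Slc22a30 at 0.94 and Cyp2j5 at 0.94. Differences of Fbp1 were small in liver and kidney, so these r values rest mostly on heart and skeletal muscle. In liver Glyat differed by -0.14 with WY14643, -0.05 with GW501516 and 0.06 with rosiglitazone, and Fbp1 by -0.05, -0.05 and 0.02. Within heart the closest were Hnf4a at 0.96, Glyat at 0.96 and Hgd at 0.95, and within skeletal muscle Xylb at 0.85 and Glyat and Hnf4a at 0.83 each, over 75 arrays minus group means. Within kidney they were Evi5 at 0.87, Tgoln1 at 0.87 and Slc34a1, the phosphate transporter of the proximal tubule, at 0.86, and within liver Tbc1d8b at 0.59 and Tpt1 and Mzt1 at 0.55 each. The kidney values include the low Fbp1 array of 12.53 and were not computed without it.

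For Fbp2 the closest genes within a tissue differed from tissue to tissue. In skeletal muscle they were Capzb at 0.72, Phka1, a subunit of phosphorylase kinase, at 0.71 and Slc16a3, the lactate exporter MCT4, at 0.70, and slow muscle fibre markers had a correlation of 0.07 with Fbp2 there. In kidney they were Slc7a9 at 0.69, Slc25a34 at 0.64 and Rnase1 at 0.63, in liver Trpv2 at 0.64, Serinc2 at 0.62 and Fbf1 at 0.58, and in heart Tectb at 0.61, Acaa2, a thiolase of fatty acid oxidation, at 0.59 and Acot1 at 0.52. The neighbouring genes themselves, Fbp1 with Fbp2, had r = -0.08 in liver, -0.04 in heart, 0.06 in kidney and -0.13 in skeletal muscle (75 arrays each). The liver correlations of Fbp2 rest mostly on the WY14643 livers, a contrast that chose it. Its SD there was 0.49 to 1.17 by day, against 0.06 to 0.25 in the other liver groups. They were not computed without the WY14643 livers.

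The rest of the pathway around the step was counted from lists. In skeletal muscle with GW501516, 0 of 13 measured gluconeogenesis genes and 0 of 18 measured glycolysis genes passed, and the list medians were -0.02 and -0.01 against -0.00067 over all genes, of which 0.857% passed. Pfkfb3, which makes the Fbp inhibitor fructose 2,6-bisphosphate, was the 1 of 4 genes of that control step to pass, and fell by 0.69 (adjusted p = 5e-05 in limma). It also fell by 0.68 with rosiglitazone (adjusted p = 7.4e-05), where 1.65% of all genes passed and Fbp2 did not. Of 17 glycogen genes, Ppp1r3a, the glycogen-targeting subunit of muscle protein phosphatase 1, rose by 0.37 (adjusted p = 0.016 in limma).

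In liver with WY14643, 2 of 13 gluconeogenesis genes rose and 2 fell, while 11.2% of all genes passed. G6pc, the catalytic subunit of glucose-6-phosphatase, fell by 0.74 and Slc37a4, its glucose-6-phosphate transporter, fell by 0.23, while Mdh2 and Got2, enzymes of the malate-aspartate shuttle, rose by 0.11 and 0.05. Of 9 genes of fructose and glycerol entry, Khk (ketohexokinase), Tkfc (triokinase) and Slc2a2 (the GLUT2 transporter) fell by 0.38, 0.50 and 0.20, and the glycerol channels Aqp3 and Aqp7 rose by 0.43 and 0.34. Among 18 glycolysis genes, Pklr, liver pyruvate kinase, fell by 0.57 and Gckr by 0.16, and Pgam1 rose by 0.08. None of 4 genes of fructose 2,6-bisphosphate control passed, and the median of the gluconeogenesis list was -0.01, as over all genes.

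In liver with GW501516, G6pc fell by 0.97, the 1 gluconeogenesis gene of 13 to fall, and Mdh2 and Got2 rose by 0.09 and 0.05, where 13.9% of all genes passed. Pfkfb3 rose by 0.58 there (adjusted p = 0.04 in limma). With rosiglitazone in liver, where Fbp2 did not pass, 2 of 13 gluconeogenesis genes also rose and 1 fell, where 16.2% of all genes passed. In kidney with GW501516, G6pc and Slc25a11 rose by 0.18 and 0.13 among 13 gluconeogenesis genes and Gys1, muscle-type glycogen synthase, rose by 0.27 among 17 glycogen genes, where 6.79% of all genes passed. In kidney with WY14643, Pfkfb4 fell by 0.30, and 0 of 13 gluconeogenesis and 0 of 17 glycogen genes passed, against 1.74% of all genes. In kidney with rosiglitazone, G6pc rose by 0.34 and Pck1, phosphoenolpyruvate carboxykinase, by 0.27, where 1.52% of all genes passed and neither Fbp1 nor Fbp2 did.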

How the data were processed

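The authors deposited 1 table of log2 intensities for 300 Affymetrix mouse whole-genome arrays, normalized with RMA in Partek per the submitters' processing notes, with versions not stated and which arrays were normalized together not given in the sources used here. Per the labels, 100 ng of RNA isolated with Qiagen miRNeasy was amplified with NuGEN reagents. Of 45101 probe sets, 34945 named 1 gene in the platform annotation, and the probe set with the highest mean stood for each of 18193 genes. Each tissue was fitted alone with limma 3.58.1 in R 4.3.3 (lmFit, eBayes with trend), with 12 group means and 63 residual degrees of freedom. Each compound was set against vehicle mice of its own day and the 3 days were averaged. Tests were two-sided, with Benjamini-Hochberg adjustment over all genes and calls at 0.05. No filter on dim genes was applied. The fit was tested on simulated data. Replicates are separate mice. The genes and lists were chosen with earlier results of these data known. Pathway genes were named by a rule: up to 4 called members of largest change and up to 2 of opposite sign per list, of which not all are printed, and the genes of highest Pearson r. Lists of markers covered 10 hepatocyte, 6 proximal tubule, 9 skeletal muscle fibre, 5 slow fibre, 6 cardiomyocyte and 7 adipocyte genes, of which 5 adipocyte genes were measured. Alternatives were other probe set rules, a filter on dim genes, array weights, normalization, the replicate block, days and covariates.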

Additional observations from a re-analysis of the deposited data

Results flagged for a closer look

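In 5 of 96 sets, each the arrays of 1 group read for 1 gene, a single array stood apart by Dixon's test, and chance alone flags about 1 set in 20. The level of Fbp2 in replicate 1 of GW501516 skeletal muscle on day 15 was 10.53, below the other 4 at 11.38 to 11.69. The level of Fbp2 in replicate 5 of rosiglitazone kidney on day 8 was 8.27, below the other 4 at 8.67 to 8.79. The level of Fbp2 in replicate 2 of vehicle liver on day 15 was 4.49, below the other 9 at 5.02 to 5.33.

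The level of Fbp1 in replicate 1 of GW501516 kidney on day 8 was 12.53, below the other 4 at 13.06 to 13.13, and its proximal tubule marker mean was 11.47, against 12.15 to 12.44 in the others. The level of Fbp1 in replicate 3 of GW501516 skeletal muscle on day 4 was 6.46, above the other 4 at 4.88 to 5.05, and its hepatocyte marker mean was 6.87, against 3.61 to 5.68 in the others. The part of these markers was not tested.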

How the results depend on the processing

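Of 341 values under alternatives 309 were unchanged, as were all but 24 of 1245 fits without a single array. Unchanged means the same direction and side of the threshold. For the contrasts with vehicle given with no test, it means the same direction and a move smaller than the within-group SD. For Fbp1 in liver with GW501516 the call was lost without a variance trend (-0.0514), with each array centred on its median (-0.0409), with the replicate block (-0.0335) and with clock components (-0.0653), and fits without a single array gave -0.0584 to -0.0459, of which 5 of 45 lost it. For Fbp2 in liver with GW501516 it was lost with the replicate block (0.45) and clock components (0.49). For Fbp2 in kidney it was lost without day 8 (0.38) and with clock components (0.32) for WY14643, and with clock components (0.16) for GW501516. Fbp2 in skeletal muscle with rosiglitazone passed, among the settings run, only with the replicate block (0.31). Same-numbered arrays are different mice, and their deviations had a median correlation of -0.00050 to 0.06 by tissue. For arrays of other numbers it was -0.0072 to 0.0020. Of 90 same-numbered pairs, 15 in liver and 41 in skeletal muscle exceeded 0.1. A median cannot show whether the numbers mark arrays handled together, which was not tested.

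Signs turned, with none past the test, for Fbp1 in liver with rosiglitazone without day 8 (-0.0020), Fbp2 in heart with WY14643 with array weights (0.0122), Fbp2 in heart with GW501516 with clock components (-0.0387), Fbp2 in heart with rosiglitazone without day 8 (0.0325), Fbp1 in heart with GW501516 and hepatocyte markers (0.0627), Fbp1 in skeletal muscle with WY14643 and hepatocyte markers (-0.21), Fbp1 in kidney with WY14643 and clock components (0.0021), and Fbp1 in kidney with GW501516 with array weights (0.0088), without day 8 (0.0061) and with clock components (0.00793). Fits without a single array spanned 0 for Fbp2 in heart with WY14643 (-0.0402 to 0.0237) and rosiglitazone (-0.0764 to 0.0057) and for Fbp1 in kidney with GW501516 (-0.0386 to 0.0113). The cause was not tested.

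Genes called ranged over 1473 to 3644 (2044 reported), 474 to 4663 (2532) and 32 to 5471 (2946) in liver for WY14643, GW501516 and rosiglitazone, 72 to 680 (262), 97 to 1706 (759) and 210 to 2653 (1367) in heart, 230 to 634 (316), 234 to 2280 (1236) and 55 to 737 (276) in kidney, and 2 to 52 (19), 20 to 458 (156) and 9 to 643 (301) in skeletal muscle. Without single arrays Fbp2 stayed at 1.04 to 1.30 with WY14643 in liver and 1.45 to 1.55 with GW501516 in skeletal muscle.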
